A study of Mus musculus with 3 samples.

Results

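The genes described here belong to the signaling route of IFN-γ from the cell surface to the nucleus, or limit it. They are receptor chains (Ifngr1 and Ifngr2), kinases (Jak1 and Jak2), transcription factors (Stat2 and Stat3) and inhibitors (Socs1, Socs3 and Ptpn2). Stat2 and Stat3 are known mainly from other cytokine signals, and the list does not cover the whole pathway. The genes were chosen by symbol for their place in the pathway, though with earlier results of these data known. They make up 9 of the 32285 genes in the deposited matrices. All 9 had UMIs in every library. They were measured by sc-RNAseq in mouse colon organoids, which are epithelial cells grown from colon crypts without immune or stromal partner cells. There were 3 libraries, 1 of untreated organoids, 1 of organoids given IFN-γ for 24 h and 1 of organoids given IFN-γ for 48 h, all grown in full medium, which favors stem and progenitor cells over differentiated ones. The cells were live cells sorted from dissociated organoids of wild-type mice. How many mice or organoid lines went into a library was not given in the sources used here. With 1 library per condition no difference could be tested against the spread between replicates, and every interval below covers counting error only.

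IFN-γ binds a receptor built from IFNGR1 chains, which hold the ligand, and IFNGR2 chains, which are needed to start the signal. JAK1 sits on IFNGR1 and JAK2 on IFNGR2, and the activated kinases phosphorylate STAT proteins, which then enter the nucleus and bind DNA. STAT dimers bind a motif called GAS, whereas STAT2 works with IRF9 in a complex that binds another motif, the ISRE. SOCS1 and SOCS3 block JAK kinases and are themselves made in response to cytokines, and the phosphatase PTPN2 (TC-PTP) removes phosphate from JAK and STAT proteins. In the colon epithelium this pathway switches on antigen presentation and antiviral genes when T cells release IFN-γ.

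The promoters of the members that rose most, Socs1 and Stat2, are shown here. They were picked for their rise and because each held an ISRE match. The sequences are the 250 bases before the annotated start site (RefSeq, GRCm38.p6), read in the direction of the gene, and capitals mark matches to the ISRE core, searched as GAAA, any 2 bases and GAAA, or as TTTC, any 2 bases and TTTC, so that both strands are covered. Socs1 lies on chromosome 16, where its window is chr16:10785537-10785786 on the minus strand, and Stat2 on chromosome 10, with its window at chr10:128270248-128270497 on the plus strand.
Socs1: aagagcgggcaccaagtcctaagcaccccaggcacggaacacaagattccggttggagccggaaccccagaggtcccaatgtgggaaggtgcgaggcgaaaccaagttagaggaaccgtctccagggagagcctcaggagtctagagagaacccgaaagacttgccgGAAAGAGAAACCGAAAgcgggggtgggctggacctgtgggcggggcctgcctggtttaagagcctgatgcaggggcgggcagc
Stat2: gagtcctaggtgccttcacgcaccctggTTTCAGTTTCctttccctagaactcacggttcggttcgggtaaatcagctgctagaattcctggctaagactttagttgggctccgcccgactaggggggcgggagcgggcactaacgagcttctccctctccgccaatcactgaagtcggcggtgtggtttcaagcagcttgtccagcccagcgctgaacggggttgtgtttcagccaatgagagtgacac
In Socs1 there were 2 matches that share 4 bases, GAAAGAGAAA starting 83 bases before the start site and GAAACCGAAA starting 77 bases before it. Stat2 held TTTCAGTTTC, starting 222 bases before its start site.

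Of the 9 members, 8 were in the promoter table, and Ptpn2 was not among them. No window of Ifngr1, Ifngr2, Jak1, Jak2 or Stat3 held an ISRE core or a GAS motif, searched as TTCNNNGAA, which reads the same on both strands. The windows of Socs1 and Stat2 held no GAS match. Socs3 held a GAS match, TTCTTAGAA, starting 154 bases before its RefSeq start site, in a stretch that lies inside the longer gene model of GENCODE vM21. An ISRE core occurred in 2.98% of all 32851 windows of this length and in 2.64% of the 15976 windows of genes tested at 24 h. Among the 507 windows of genes that were at least 2-fold higher at 24 h it occurred in 13.4%. GAS occurred in 7.02%, 5.98% and 9.27% of the same sets of windows. A match is a stretch of letters and says nothing about binding, which was not measured.

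A barcode counted as a cell if it held 5000 UMIs and 400 genes or more, with no more than 15% of its UMIs from mitochondrial genes. The untreated library had 1058 such cells, the 24 h library 917 and the 48 h library 2934. The depth differed between libraries, with a median of 33550 UMIs per cell without treatment, 68784 at 24 h and 10772 at 48 h, and totals of 47243500 to 71077817 UMIs. Levels are therefore given as CPM, a gene’s summed UMIs in a library relative to all UMIs of its cells. The libraries shared 1 to 4 cell barcodes per pair and none in all 3. All 6 epithelial markers were present in every library, with a summed level of 8035 CPM without treatment, 5960 CPM at 24 h and 5336 CPM at 48 h. The 10 immune markers summed to 2.81, 2.98 and 3.98 CPM, mostly Cd68, and the pan-leukocyte gene Ptprc had no UMI. The 10 stromal and endothelial markers summed to 3.35, 11.8 and 18.8 CPM, in treated cells mostly Acta2, and Col1a1 had no UMI. Free RNA was judged from barcodes below 2000 UMIs, taken as background. The deposited barcodes started at 1390 UMIs in the untreated, 851 in the 24 h and 1624 in the 48 h library. Whether this background also held shallow or damaged cells was not tested. Scaling the libraries with TMM factors (edgeR), which balance the bulk of genes, would add 0.45 to every log2 ratio at 24 h and 0.19 at 48 h.

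The largest changes were in the RNA of Socs1 and Stat2. Socs1 rose 61.6-fold at 24 h and was 29.8-fold higher at 48 h, and Stat2 was 3.97-fold higher at 24 h and 6.54-fold higher at 48 h. Both receptor chains were lower than in untreated cells at both times. The paper reports no significant downregulation of the IFN-γ receptors over its organoid conditions. Its main text names neither the measure nor the time, so the values cannot be set directly side by side. The kinases, Stat3, Socs3 and Ptpn2 stayed within 2-fold of the untreated level. At 24 h, 2 of the 9 members were at least 2-fold higher, where 3.46% of 17412 genes were, and 1 was at least 2-fold lower, where 26.0% of genes were. At 48 h the counts were again 2 higher, beside 5.26% of 17376 genes, and 1 lower, beside 16.6%. The members' median was 0.01 at the first time and 0.03 at the second on the log2 scale, beside -0.46 and -0.18 over all genes.

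**Figure D1:**
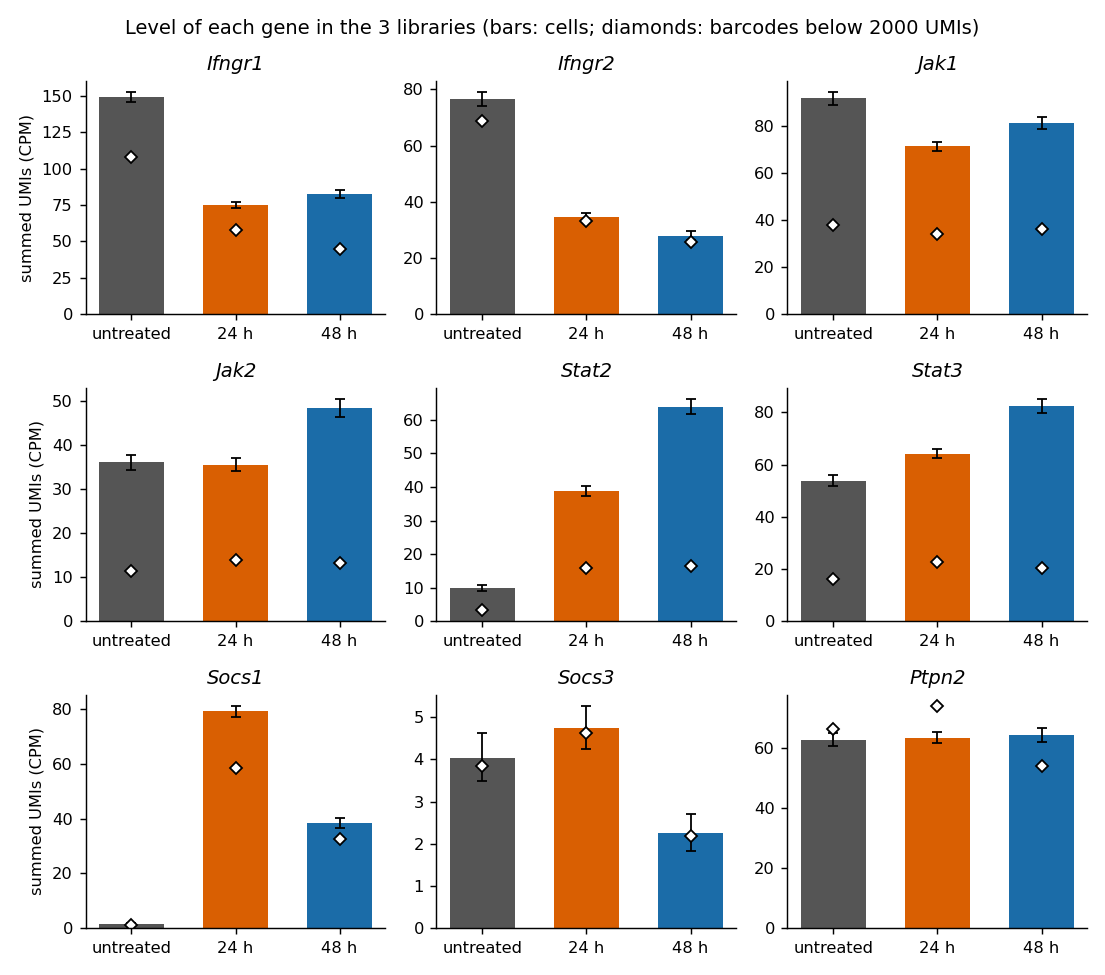
Level of each of the 9 genes in CPM (y axis, from 0) in the untreated library and after 24 h and 48 h of IFN-γ (bars, 1 library each), with 95% Poisson intervals of the count. Diamonds give the level in barcodes below 2000 UMIs of the same library. Socs1 went from 1.29 to 79.2 and 38.3 CPM, while Ifngr1 and Ifngr2 were lower at both times.

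The receptor chains were measured first, since they set which cells can receive the signal. Ifngr1 (GRCm38 chr10:19591949-19610229), the ligand-binding chain, stood at 149 CPM without treatment (7424 UMIs), 75.2 CPM at 24 h (5343 UMIs) and 82.6 CPM at 48 h (3903 UMIs). Both treated libraries were below the untreated one, with intervals far apart, at log2 ratios of -0.99 (95% interval -1.04 to -0.94) and -0.85 (-0.91 to -0.80). Of all genes tested, 26.5% had a lower ratio than Ifngr1 at 24 h and 19.6% at 48 h. Between 24 h and 48 h its level differed by a log2 ratio of 0.14, which became -0.12 under TMM factors.

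Ifngr2 (chr16:91547072-91565623), the chain that recruits JAK2, stood at 76.5 CPM without treatment (3811 UMIs), 34.6 CPM at 24 h (2458 UMIs) and 27.9 CPM at 48 h (1318 UMIs). It was the only member at least 2-fold lower than in untreated cells, with log2 ratios of -1.15 (-1.22 to -1.07) and -1.46 (-1.55 to -1.36), and its level was lowest at 48 h. At 24 h 22.6% of all genes had a lower ratio, and at 48 h 9.85%. TMM factors moved its ratio to -0.70 at 24 h, short of 2-fold, and to -1.27 at 48 h.

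For Ifngr2 the background barcodes held nearly the same level as the cells, with cells at 1.12, 1.05 and 1.09 times background in the untreated, 24 h and 48 h libraries. For Ifngr1 the cells were 1.38, 1.30 and 1.85 times background. In the background itself Ifngr1 stood at 108, 57.9 and 44.8 CPM and Ifngr2 at 68.6, 33.1 and 25.5 CPM, so the lower level was seen in both kinds of barcode. The part of free RNA in the result was not tested. After each cell was thinned to 5000 UMIs, a UMI of Ifngr1 was seen in 52.8% of cells without treatment and in 35.8% and 34.0% of cells after 24 h and 48 h, where the unthinned shares, which follow depth, were 91.8%, 89.1% and 62.0%. Ifngr2 had a UMI in 30.9%, 16.2% and 12.5% of thinned cells. A UMI of each chain was found in 17.5% of thinned cells without treatment (exact 95% interval 15.2 to 19.9%), 5.89% at 24 h (4.45 to 7.61%) and 4.77% at 48 h (4.03 to 5.61%). These shares lay close to the products of the single shares, which were 16.3%, 5.81% and 4.24%, so that at this depth the chains were seen together about as often as separate draws give.

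The kinases changed little. Jak1 (chr4:101152367-101265282), the kinase on IFNGR1, was at 91.9 CPM without treatment, 71.6 CPM at 24 h and 81.3 CPM at 48 h. Its log2 ratios of -0.36 and -0.18 turned to 0.09 and 0.01 under TMM factors, so no direction was kept for Jak1. Jak2 (chr19:29251828-29313080), the kinase on IFNGR2, was at 36.0 CPM without treatment, 35.6 CPM at 24 h and 48.5 CPM at 48 h. At 24 h its ratio of -0.02 had an interval that held 0 (-0.11 to 0.07) and became 0.43 under TMM factors, and at 48 h it was 0.43 (0.34 to 0.52). The level of Jak2 at 48 h lay above both other libraries. Jak1 in cells was 2.09 to 2.42 times background and Jak2 2.55 to 3.65 times.

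Stat2 (chr10:128270559-128292849), the partner of IRF9 in type I interferon signaling, stood at 9.78 CPM without treatment (487 UMIs), 38.8 CPM at 24 h (2759 UMIs) and 63.9 CPM at 48 h (3021 UMIs). The 3 levels were ordered by time with intervals apart, at log2 ratios of 1.99 (1.85 to 2.13) at 24 h and 2.71 (2.57 to 2.85) at 48 h. Its ratio at 24 h was above that of 98.3% of all genes, and at 48 h above 98.6%. A Stat2 UMI was found in 5.01%, 21.0% and 28.8% of thinned cells. In cells its level was 2.46 to 3.90 times that of background barcodes.

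Stat3 (chr11:100885098-100939540), a STAT known mainly for IL-6 family, IL-10 and IL-22 signals, stood at 53.8 CPM without treatment, 64.2 CPM at 24 h and 82.5 CPM at 48 h. Its log2 ratios were 0.26 (0.19 to 0.32) and 0.62 (0.55 to 0.69), so each later library was higher but none by 2-fold. The share of thinned cells with a Stat3 UMI was 26.8%, 29.6% and 33.3%. Stat3 was 2.82 to 4.09 times its background level.

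**Figure D2:**
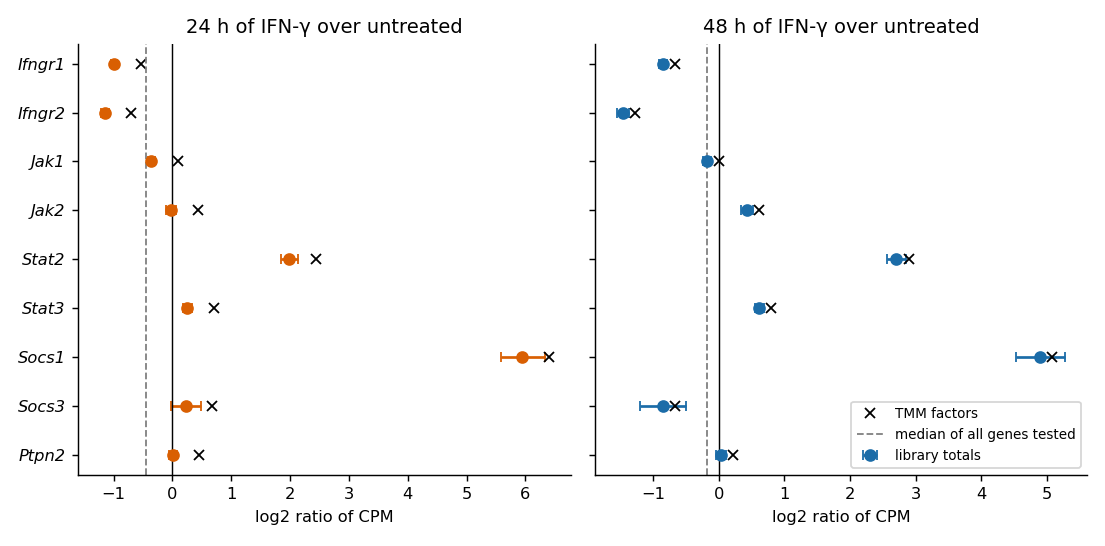
Log2 ratio of CPM of each gene (rows) at 24 h (left) and 48 h (right) of IFN-γ over untreated cells, with 95% counting intervals (circles and bars). Crosses give the ratio with TMM factors and the dashed line the median of all genes tested, -0.46 and -0.18. Socs1 and Stat2 lie far to the right of the other members at both times.

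Among the inhibitors, Socs1 changed most. Socs1 (chr16:10782240-10785536), which blocks JAK1 and JAK2, had 64 UMIs in all untreated cells (1.29 CPM), 5630 UMIs at 24 h (79.2 CPM) and 1808 UMIs at 48 h (38.3 CPM). Its log2 ratio was 5.95 (5.59 to 6.32) at 24 h, above that of 99.6% of genes tested, and 4.90 (4.54 to 5.28) at 48 h, above 99.4%. A Socs1 UMI was found in 0.851% of thinned cells without treatment, in 28.2% after 24 h and in 16.5% after 48 h, and in 5.39%, 80.6% and 37.4% of cells at full depth. Cells were 1.38, 1.35 and 1.18 times background, and the background barcodes themselves held 0.928, 58.6 and 32.5 CPM. In these barcodes the log2 ratio to the untreated library was 5.98 at 24 h and 5.13 at 48 h, so the rise was as large there as in cells, and the part of free RNA in the level of cells was not tested. A Socs1 UMI in a single treated cell need not have come from that cell.

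Socs3 (chr11:117966079-117970047), the SOCS protein best known for limiting STAT3 signals, was scarce, at 4.04 CPM without treatment (201 UMIs), 4.74 CPM at 24 h (337 UMIs) and 2.24 CPM at 48 h (106 UMIs). The log2 ratio at 24 h was 0.23 with an interval that held 0 (-0.02 to 0.49), and at 48 h it was -0.85 (-1.20 to -0.50). Cells held 1.02 to 1.05 times the background level in all 3 libraries. Only 2.27%, 2.84% and 1.30% of thinned cells had a Socs3 UMI. The levels of Socs1 and Socs3 thus moved apart under IFN-γ, with the first up by over 2-fold at each time and the second not.

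Ptpn2, the phosphatase, was nearly level, at 62.9 CPM without treatment (3131 UMIs), 63.4 CPM at 24 h (4508 UMIs) and 64.3 CPM at 48 h (3037 UMIs). Its log2 ratios of 0.01 (-0.05 to 0.08) and 0.03 (-0.04 to 0.10) had intervals that held 0, and under TMM factors they were 0.46 and 0.22. It stood at 0.945, 0.855 and 1.19 times background in the 3 libraries. The intervals bound counting error only, so a small change between the cultures could not be seen.

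From 24 h to 48 h the members parted. Stat2 (log2 ratio 0.72), Jak2 (0.45) and Stat3 (0.36) were higher at 48 h, Ifngr2 was lower (-0.31, -0.41 to -0.21), Ptpn2 did not differ beyond its counting interval (0.02), and Socs1 (-1.05, -1.13 to -0.97) and Socs3 (-1.08, -1.41 to -0.76) were lower. With clusters weighted by their untreated shares the first 3 ratios came to 0.29, 0.04 and 0.04, and with the mean over cells of CPM to 0.35, 0.10 and 0.12. In clusters 0 and 5 the late ratio was below 0 for Jak2 (-0.31 and -0.33, the latter with an interval that held 0) and for Stat3 (-0.19 and -0.49). Of the 9 members, 2 were at least 2-fold lower at 48 h than at 24 h, beside 2.31% of 16814 genes, and 0 at least 2-fold higher, beside 11.6%. The median over all genes was 0.26.

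The lower Socs1 level at 48 h was set beside 28 genes known to respond to IFN-γ, such as the transcription factor Irf1, the chemokine Cxcl10 and the MHC class II chain Cd74. All 28 were at least 2-fold higher at both times, and their median was 8.44 and 8.51 on the log2 scale, or 8.44 and 8.43 with untreated counts under 3 set to 3, since 2 of them had no UMI in untreated cells. From 24 h to 48 h their median log2 ratio was 0.21, from -0.44 for Bst2 to 1.79 for H2-Ab1, and 7 of the 28 were below 0. None of the 28 fell by as much as Socs1, but the list was chosen with earlier results of these data known. Neither the rise of its genes nor this comparison is a test. Irf1 had a ratio of -0.10 and Cxcl10 -0.35, whereas Cd74 reached 0.93. Over all genes that rose by at least 4 on the log2 scale and held at least 10 CPM at 24 h, a set picked after its values were seen, Socs1 was the only 1 of 57 that was at least 2-fold lower at 48 h than at 24 h. In background barcodes its late log2 ratio was -0.85. TMM factors moved the ratio of cells to -1.31, and weighting the cell clusters by their untreated shares moved it to -0.88.

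To see whether the changes ran through the epithelium, cells of the 3 libraries were clustered on genes that left out the members, the pathway genes and the response genes. Of the 9 clusters, 6 had at least 20 cells in every library. They were a mitotic-like cluster (number 1), an S phase-like cluster (2), a colonocyte-like cluster (3), a goblet-like cluster (4) and 2 without a name (0 and 5). Cluster 0 had 9 of 12 stem markers raised but none among its 10 leading genes, and its share of cells was 32.5% in the untreated, 19.5% in the 24 h and 47.0% in the 48 h library. Cells of clusters 0 and 5 were below the median depth of their library, with medians of 7334 to 15373 and of 8276 to 11249 UMIs. Their median mitochondrial share was 7.96 to 10.4% and 9.70 to 10.2%, beside 2.12 to 6.14% over all cells of a library. The mitotic-like cluster held 12.5%, 24.9% and 14.7% of cells, so the mix of clusters differed between the libraries.

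Summed over cells, the Socs1 level was above that of the untreated library in all 6 clusters at both times, with log2 ratios from 5.10 to 6.23 at 24 h and from 4.31 to 5.19 at 48 h. At 24 h its level was 48.6 CPM in cluster 0, 49.1 CPM in cluster 5, 69.5 CPM in the mitotic-like, 73.9 CPM in the goblet-like, 89.9 CPM in the S phase-like and 90.4 CPM in the colonocyte-like cells. In that order 4 of the 5 pairs of neighbors had overlapping intervals, and only goblet-like and S phase-like cells were apart. At 48 h the levels were 30.3 CPM in cluster 0, 28.5 CPM in cluster 5, 33.9 CPM in the mitotic-like, 38.5 CPM in the goblet-like, 43.3 CPM in the S phase-like and 50.3 CPM in the colonocyte-like cells, so the order was nearly that of 24 h. The background level of 58.6 CPM at 24 h lay above clusters 0 and 5 and below the intervals of the other 4. At 48 h it was 32.5 CPM, again above clusters 0 and 5, and only the intervals of S phase-like and colonocyte-like cells lay above it. In CPM, clusters 0 and 5 were therefore not above background at either time. Mitotic-like and goblet-like cells at 48 h had intervals that held it. As counts, background held 1251 UMIs in 15994 barcodes at 24 h, against 186 in 179 cells of cluster 0 and 24 in 33 of cluster 5. At 48 h it held 830 UMIs in 14296 barcodes, against 362 in 1378 cells and 39 in 133. Mitotic-like cells then held 447 in 432 cells and goblet-like cells 137 in 242. On average a cell thus held more Socs1 UMIs than a background barcode. Counts follow depth, however, and the UMI limits alone make cells deeper than background barcodes. The counts therefore cannot show whether a cluster lay above background, and the part of free RNA was not tested. The untreated clusters had 1 to 16 Socs1 UMIs each, and with 1 UMI the ratio of cluster 5 at 24 h had an interval of 2.48 to 10.46. Socs1 was lower at 48 h than at 24 h in all 6 clusters, by log2 ratios of -1.05 to -0.68, and in 5 of them the interval lay below 0, cluster 5 being the exception. In background barcodes the same log2 ratio was -0.85 (-0.98 to -0.72), within the range of the clusters. The part of free RNA in the fall within clusters was not tested.

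**Figure D3:**
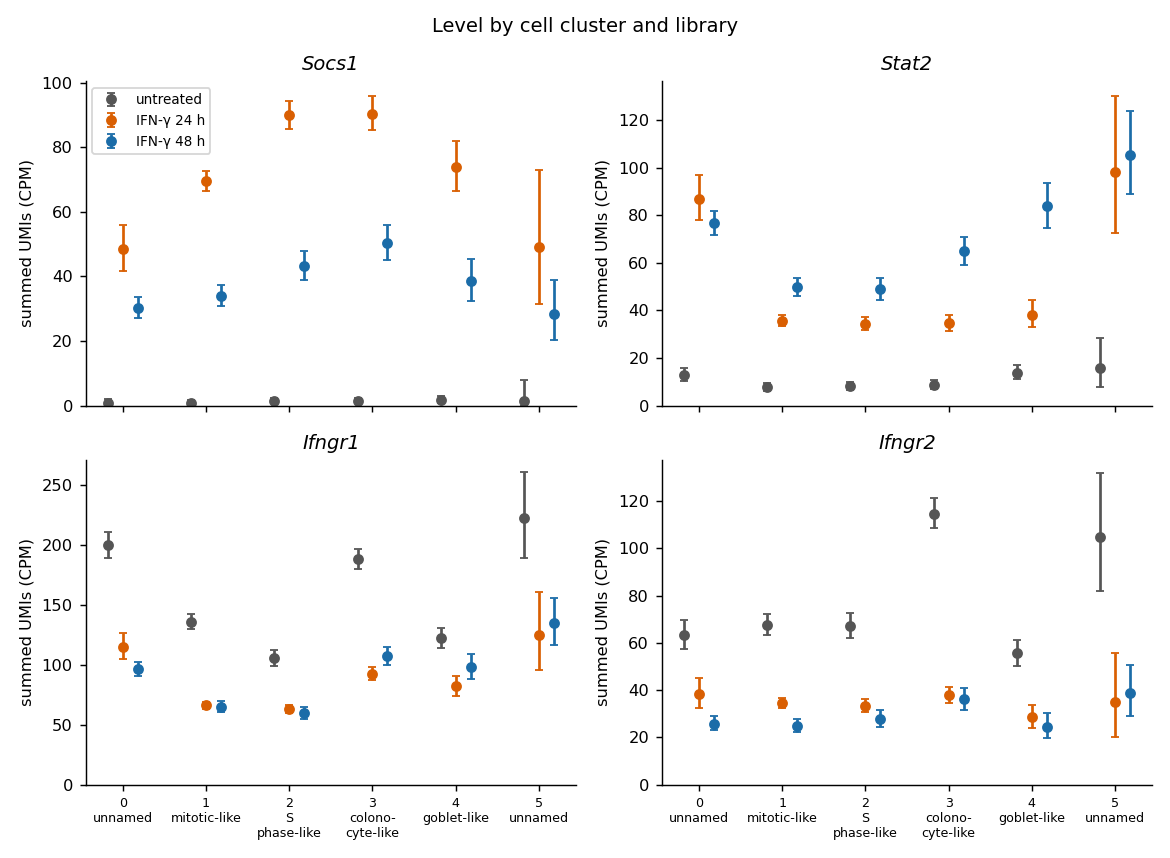
Level in CPM (y axes, from 0) of Socs1, Stat2, Ifngr1 and Ifngr2 in each of 6 cell clusters (x axis) in untreated cells and at 24 h and 48 h of IFN-γ, with 95% Poisson intervals. In each cluster Socs1 is highest at 24 h, and both receptor chains are highest in untreated cells.

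Stat2 was at least 2-fold higher in all 6 clusters at both times, with log2 ratios of 1.46 to 2.77 at 24 h and 2.59 to 2.88 at 48 h. At 24 h it stood apart in the clusters without a name, at 86.9 CPM in cluster 0 and 98.2 CPM in cluster 5, against 34.5 to 38.2 CPM in the other 4. This was not particular to Stat2. Clusters 0 and 5 also ranked highest at 24 h for Jak2 (72.1 and 108 CPM), Stat3 (114 and 166 CPM), Ifngr1, Jak1 and Ptpn2. They did not for Ifngr2, Socs1 or Socs3. At 48 h the goblet-like cells had reached 83.7 CPM and the colonocyte-like cells 64.8 CPM, while the S phase-like cells held 48.8 CPM. The log2 ratio of 48 h to 24 h had an interval above 0 in 4 clusters and was largest, 1.13, in goblet-like cells. In cluster 0 it was -0.18 and in cluster 5 0.10, with intervals that held 0. In all 6 clusters and all 3 libraries the interval of Stat2 lay above its background level, by 2.18 to 6.41 times in level.

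Ifngr1 was lower with an interval below 0 in all 6 clusters at both times, by log2 ratios from -1.04 to -0.58 at 24 h and from -1.06 to -0.32 at 48 h. Under TMM factors the interval held 0 in goblet-like cells at both times (-0.13 at each) and in cluster 5 at 24 h (-0.39). In untreated cells it stood at 105 CPM in S phase-like, 122 CPM in goblet-like, 136 CPM in mitotic-like and 188 CPM in colonocyte-like cells, and at 199.8 CPM in cluster 0 and 223 CPM in cluster 5. In that order 3 of the 5 pairs of neighbors had overlapping intervals. Ifngr2 was also lower in all 6, by -1.60 to -0.72 at 24 h and -1.67 to -1.19 at 48 h, and at 48 h all 6 were at least 2-fold lower. Its untreated level was 115 CPM in colonocyte-like and 105 CPM in cluster 5 cells, and 55.6 to 67.7 CPM in the other 4. At 24 h the 6 clusters held 28.5 to 38.4 CPM of Ifngr2 and all 5 pairs of neighbors overlapped. The background level was 33.1 CPM, and only colonocyte-like cells had an interval above it. As counts, which follow depth, background held 706 UMIs in 15994 barcodes at 24 h, against 2458 UMIs in 917 cells. The part of free RNA in these levels was not tested. Without treatment 4 of the 6 clusters were below the background level of 68.6 CPM, and at each time only 1 or 2 clusters had an interval above background. In background barcodes the log2 ratio of Ifngr2 was -1.05 at 24 h and -1.43 at 48 h, and that of Ifngr1 -0.90 and -1.27. Ifngr1 was above background, interval included, in 5 of the 6 untreated clusters and in all 6 at 24 h and 48 h.

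Stat3 was highest in goblet-like cells without treatment, at 85.9 CPM, with an interval that overlapped those of clusters 0 and 5 (77.4 and 77.5 CPM), and lowest in S phase-like cells, at 32.8 CPM. At 24 h its log2 ratio was -0.24 (-0.43 to -0.04) in goblet-like cells and 0.39 to 1.10 in the other 5 clusters. Under TMM factors the ratio of goblet-like cells turned to 0.21 (0.01 to 0.40), so that no direction was kept there. At 48 h it was higher in 5 clusters, and in goblet-like cells the interval held 0 (0.19, -0.01 to 0.38). A difference between clusters could not be tested with 1 library each. Enteroendocrine-like cells, with 30, 12 and 21 cells too few for the clusters above, had 168, 228 and 293 CPM of Stat3. Jak2 ran from 25.8 CPM in S phase-like to 73.2 CPM in cluster 5 untreated cells, and Jak1, from 79.8 to 124 CPM, varied less. The log2 ratio of Jak2 at 24 h ran from -0.31 in goblet-like cells to 0.57 in cluster 5, with 2 intervals above 0 and 1 below. Under TMM factors that of goblet-like cells was 0.14, with an interval that held 0. The ratios at 48 h ran from 0.14 to 0.71, with 3 intervals above 0. With clusters weighted by their untreated shares Jak2 stood at 0.26 at 24 h and 0.30 at 48 h. Ptpn2 was within log2 ratios of -0.21 to 0.20 of the untreated level in every cluster at both times. Under TMM factors its ratios ran from 0.36 to 0.65 at 24 h, with every interval above 0. At 48 h they ran from -0.03 to 0.34. Its cluster levels were 0.735 to 1.72 times background.

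Receptor level was then compared with response level over the 6 clusters. The summed Ifngr1 and Ifngr2 level in untreated cells ran from 172.7 CPM in S phase-like to 327 CPM in cluster 5, a 1.90-fold range. The summed level of the 28 response genes ran over a narrower range, from 8325 CPM in cluster 5 to 9858 CPM in goblet-like cells at 24 h (1.18-fold) and from 10516 CPM in cluster 0 to 13311 CPM in colonocyte-like cells at 48 h (1.27-fold). At 24 h Spearman's rho over the clusters was -0.31 and Pearson's r -0.32, and at 48 h they were 0.43 and 0.81. These describe 6 points that share libraries, depth and background, and carry no test. Of the 6 clusters, the 2 with the most receptor RNA, colonocyte-like and 5, had the highest response at 48 h, at 13311 and 13196 CPM. At 24 h cluster 5 had the lowest response and goblet-like cells, among the lowest in receptor RNA at 178 CPM, the highest. Enteroendocrine-like cells, too few to enter, had 152 CPM of receptor RNA without treatment, below all 6. Their response was 20335 CPM at 24 h and 16747 CPM at 48 h, above all 6. The sign at 24 h did not hold when the response was taken as the mean log2 level (rho 0.66), nor that at 48 h with 12 finer clusters (-0.00699).

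**Figure D4:**
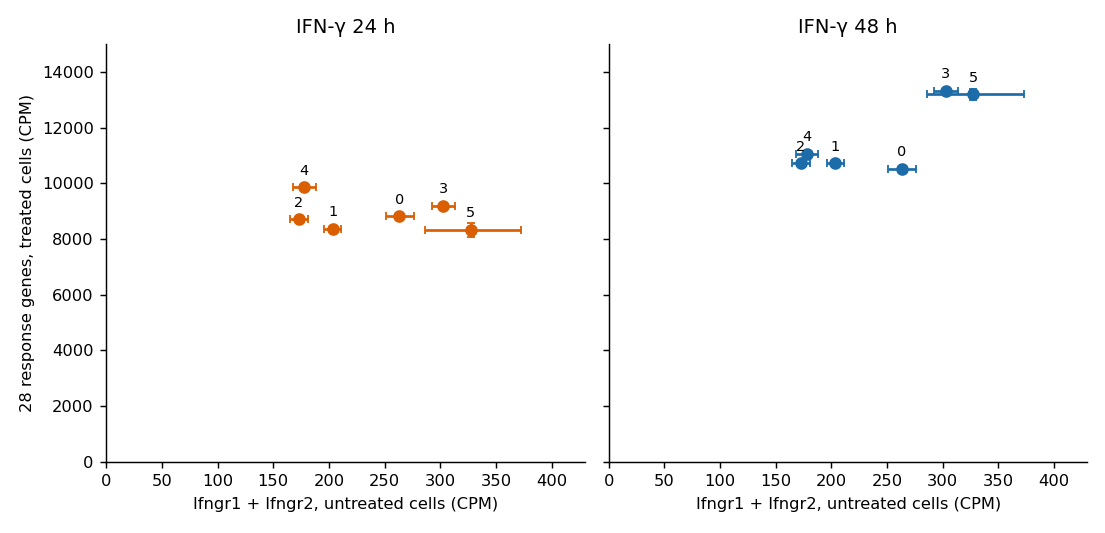
Summed level of 28 IFN-γ response genes in treated cells (y axis, CPM) against the summed level of Ifngr1 and Ifngr2 in untreated cells (x axis, CPM) for 6 cell clusters (numbered points, 95% Poisson intervals) at 24 h (left) and 48 h (right). The clusters differ 1.90-fold in receptor level and 1.18-fold and 1.27-fold in response.

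The same question was asked of single cells thinned to 5000 UMIs. At 24 h, cells with a Socs1 UMI held a mean of 48.0 response UMIs and those without 42.9, a ratio of 1.12 that was also 1.12 within clusters. At 48 h the means were 57.0 and 55.1, a ratio of 1.04. Cells with an Ifngr1 UMI had 1.03 times the response UMIs of cells without at 24 h and 1.06 times at 48 h, and for Ifngr2 the ratios were 1.06 and 1.05. In untreated cells, with means of 1.09 to 1.27 response UMIs, the ratios were 1.04 for Ifngr1 and 1.17 for Ifngr2. Ratios above 1 were thus also seen without IFN-γ. Differences of this size between cells of 1 library were not tested.

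For each member the genes with the most similar course were taken by Pearson's r of log2(CPM + 1) over 18 sums, 6 clusters in 3 libraries, which share depth and background. Socs1 ran closest to Tgtp1 (0.99), whose reads can be split with its near copy Tgtp2, Ifi47 (0.99) and Psmb9 (0.98), and Stat2 to Ly75 (0.99), Parp11 (0.99) and Gm16685 (0.98). Of the 18 sums, 6 were untreated, where Socs1 had 1 to 16 UMIs. A high r did not mean an equal late change. From 24 h to 48 h the log2 ratio was -0.42 for Psmb9 and -1.05 for Socs1. Among the receptors, Ifngr1 ran closest to Thsd4 (0.97), Tesk2 (0.95) and Hs3st1 (0.95), and Ifngr2 to Il18 (0.96), Hao2 (0.96) and Nfe2l2 (0.96). The kinases ran with other genes, Jak1 with Cpd (0.97), Spindoc (0.96) and Tmem181a (0.95) and Jak2 with Tle4, Sptlc2 and Tor1aip2 (0.97 each). The closest genes to Stat3 were Stk40 (0.95), Akr1b10 (0.94) and Heatr5a (0.94). Ptpn2 and Socs3 had lower best values, 0.93 with Cwf19l2 and 0.86 with Ngdn.

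Around these members, 42 other genes of cytokine signaling were listed, and 40 had enough counts. At 24 h 5 were at least 2-fold higher and 3 lower, beside 3.46% and 26.0% of all genes, and at 48 h 6 were higher and 0 lower, beside 5.26% and 16.6%. The median of the list was -0.39 and -0.11 on the log2 scale, close to the -0.46 and -0.18 of all genes. Pim1, a kinase made downstream of STATs, went from 12.8 CPM to 59.4 and 48.0 CPM, log2 ratios of 2.22 and 1.91. Irf9, the DNA-binding partner of STAT2, went from 7.63 to 17.9 and 20.2 CPM (1.23 and 1.40), and Nmi, which binds STAT proteins, from 22.8 to 57.6 and 49.8 CPM (1.34 and 1.13). Ifnar2, a chain of the type I interferon receptor, was higher as well, at 14.7, 32.4 and 37.1 CPM (1.14 and 1.34), so that it moved against both IFN-γ receptor chains. Ifnar1, the other chain of that receptor, did not rise with it. It was lower at both times, at 11.6, 7.79 and 8.64 CPM (-0.57 and -0.43).

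Il4ra, the IL-4 receptor chain, was at 7.19, 11.6 and 18.0 CPM (0.69 and 1.33). Lower levels were seen for Cblb, a ubiquitin ligase, at 38.1, 12.9 and 24.6 CPM (-1.57 and -0.63), for Socs5 at 15.3, 7.88 and 12.5 CPM (-0.96 and -0.29) and for the coactivator Ep300 at 50.7, 29.5 and 37.4 CPM (-0.78 and -0.44). None of the 6 other genes of the SOCS family was 2-fold higher or lower at either time, with a median of -0.55 and -0.33, beside -0.46 and -0.18 over all genes. Of the 8 SOCS family genes, Socs1 alone was at least 2-fold higher. Usp18, an inhibitor at IFNAR2, was below 10 CPM in all 3 libraries (0.743, 5.63 and 8.19 CPM), with log2 ratios of 2.92 and 3.46.

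**Figure D5:**
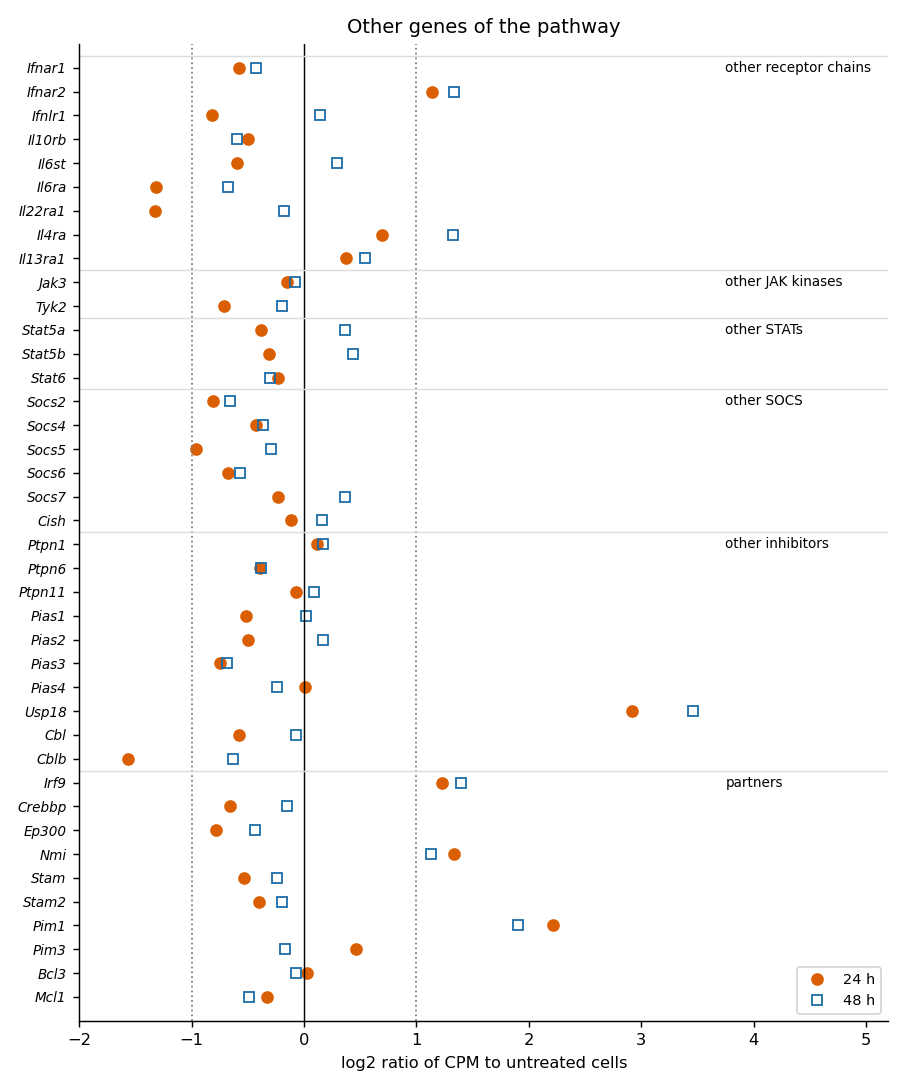
Log2 ratio of CPM to untreated cells (x axis) at 24 h (circles) and 48 h (squares) of IFN-γ for 40 other genes of the pathway (rows), grouped by role. Dotted lines mark 2-fold. Usp18, Pim1, Nmi, Irf9 and Ifnar2 lie beyond the upper line at both times, and no gene lies beyond the lower line at 48 h.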

How the data were processed

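Single-cell libraries were made with 3' v3 chemistry (10x Genomics). The submitters' processing notes name Cell Ranger 6.0.1 and mm10, and the annotation release is not given in the sources used here. The authors deposited, for each of the 3 libraries, whole UMI counts per gene and barcode without normalization, background barcodes included (20841, 17227 and 22478 barcodes). Cells were filtered as in the study's methods, at 5000 UMIs, 400 genes and 15% mitochondrial UMIs. The members and lists were chosen with earlier results of these data known.

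Counts were summed per library. Ratios had exact conditional binomial intervals, levels exact Poisson intervals and shares Clopper-Pearson intervals, at 95%. UMIs lost to depth, free RNA and shared culture lie outside them. Genes with at least 10 counts over a pair of libraries entered the background shares. Each cell was thinned at random to 5000 UMIs for shares of cells. Doublets were not called, and leaving out the 5% of cells with the most UMIs was an alternative. Clusters came from Seurat 5.3.0 with CCA integration, 2000 variable genes, 20 components and resolution 0.5, and were named "-like" from marker lists (at least 3 markers raised, 1 or more of them among the 10 leading genes). TMM factors came from edgeR 4.0.16. Statistics ran in Python 3.11.15 with numpy 2.4.6 and scipy 1.17.1. The ratios and their intervals were tried on simulated Poisson counts. Such counts follow the model of the intervals and hold no free RNA, so this checked the arithmetic only. Gene overlaps came from GENCODE vM21 on GRCm38. Raver2 overlaps Jak1 and Stat5a overlaps Stat3, each on the other strand.

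All members are described. From the pathway list, the 8 genes with the largest 24 h ratio, at least 10 CPM on average and the same direction at both times are named, and for each member the 3 genes most alike over the cluster sums. Usp18, Ifnar1 and the lowest and highest response genes were named after their values were seen.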

Additional observations from a re-analysis of the deposited data

How the results depend on the processing

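No paired analysis was possible because each condition has 1 library. The 27 log2 ratios were recomputed under 7 alternatives (minimum of 2000 or 10000 UMIs, at most 10% mitochondrial UMIs, TMM factors, mean over cells of CPM, without the 5% of cells with the most UMIs, and clusters weighted by untreated shares), and no ratio past 2-fold changed sign. Among smaller ratios the sign changed in 6 under TMM factors, in 5 with the mean over cells and in 1 without the deepest cells. Over all alternatives these were ratios of Jak1, Jak2 and Ptpn2 and the 48 h over 24 h ratio of Ifngr1. TMM factors moved 24 of the 27 beyond their counting interval and left 3 within it. The 10% mitochondrial limit and the removal of the deepest cells left all 27 within it. The count of members at least 2-fold higher was 2 at both times under every one of the 7.

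The count at least 2-fold lower at 24 h was 0 under TMM factors, because Ifngr2 stood at -0.70. At 48 h it was 2 with the mean over cells of CPM and with weighted clusters, where Socs3 joined Ifngr2 at -1.14 and -1.06. For receptor against response level, Spearman's rho at 24 h was -0.2 with 4 coarser clusters, -0.203 with 12 finer ones, -0.371 with Ifngr1 alone, -0.429 with Ifngr2 alone and 0.657, reversed, with the mean log2 level of the response genes. At 48 h these were 0.2, -0.00699, which is just below 0, 0.143, 0.6 and 0.829. The cause was not tested. At 24 h rho thus took either sign, and at 48 h it ran from about 0 to 0.829. The background share of genes at least 2-fold higher was 8.38% at 24 h with a minimum of 1 count and 2.73% with 100, and that of genes lower 33.0% and 17.0%, and the other shares moved in the same way. Depth limits Socs3 most, with 106 UMIs at 48 h, and Socs1 in untreated cells, with 64.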

Other observations

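Enteroendocrine-like cells, the hormone-secreting cells of the gut, were too few for the cluster comparisons, with 30 untreated cells, 12 at 24 h and 21 at 48 h. They had the highest summed level of the 28 response genes of all 9 clusters at both times, at 20335 CPM at 24 h and 16747 CPM at 48 h, against 163 CPM without treatment. The sum did not hold for each gene. At 24 h Cd74 was at 1868 CPM, beside 1345 CPM in colonocyte-like cells. Irf1, Gbp2 and Cxcl10 were at 433, 470 and 700 CPM. They were higher elsewhere, at 827 CPM in cluster 8, 857 CPM in goblet-like and 1081 CPM in S phase-like cells. In enteroendocrine-like cells Socs1 had 0 UMIs without treatment, 47 UMIs at 24 h (134 CPM) and 7 UMIs at 48 h (30.6 CPM). The level at 48 h was below the 32.5 CPM of background barcodes, and no ratio is given. These are values of 12 to 30 cells from 1 library each, with no test.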
